A study of Homo sapiens with 36 samples.

Results

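The genes described here make the proteins that recognise, package and splice pre-mRNA. They were taken as every listed site whose gene symbol starts with HNRNP, SRSF, SF3A, SF3B, SNRP, U2AF or PRPF. This gave 68 of 9343 genes: 21 hnRNP genes, 11 SR genes, 9 SF3A and SF3B genes, 12 SNRP genes, 4 U2AF genes and 11 PRPF genes. They held 418 of 57011 methylated adenosines in HEK293T (65 genes, 0.733% of the table), 461 of 22855 in BE(2)-C without ATRA (53 genes, 2.02%) and 203 of 21031 in BE(2)-C with ATRA (43 genes, 0.965%). A site was listed in all 3 tables for 39 of the genes, and a 5'UTR site for 24.

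Methylation was mapped to single bases by m6ACE, in which an antibody is crosslinked to methylated RNA and an exonuclease trims the RNA up to it. There were 36 samples in 12 groups of 3, 18 of them m6ACE libraries and 18 inputs. PCIF1 siRNA (siPcif1) was compared with scrambled siRNA (siScram) in wild-type cells of 3 contexts: HEK293T, a human embryonic kidney line, BE(2)-C, a human neuroblastoma line, without all-trans retinoic acid (ATRA; the deposited table's name says DMSO, which the sample labels do not mention), and BE(2)-C with 10 uM ATRA for 4 days after 24 hours of siRNA. Every sample carries the same culture text, which describes BE(2)-C, and HEK293T is labelled neuroblastoma, so how HEK293T was treated remains unstated in the labels. Whether the 3 libraries of a group came from separate cultures is not labelled either. P-values therefore reflect only library-to-library spread, which may be technical.

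Splicing removes introns in a series of handovers between these proteins. U2AF binds the 3' splice site and helps bring in the U2 particle, whose SF3A and SF3B proteins hold the branch point. The SNRP genes encode the Sm ring and other proteins of the small nuclear ribonucleoproteins, and the PRPF proteins serve mainly the U4/U6.U5 particle and the catalytic core. SR proteins mostly bind exons and promote their use, whereas hnRNP proteins coat pre-mRNA and often oppose it. Where a transcript begins with adenosine, PCIF1 can write m6Am there, the methylated adenosine next to the cap. Internal m6A is written by the METTL3 complex, mostly in the sequence DRACH (D is A, G or T, R is A or G, H is A, C or T).

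Each site has a relative methylation level (RML), a ratio given for each m6ACE library. No label or header states its formula or how libraries were scaled. RML is not an expression level, and the depth behind it is unknown, so the knockdown of PCIF1 could not be checked with it. Over all sites the library medians of RML lay between 1.8 and 2.22 in HEK293T, between 1.51 and 3.29 in BE(2)-C without ATRA and between 2.36 and 4.16 with ATRA. Every table lists only sites that the authors called in at least 1 of its groups. Sites in neuroblastoma marker genes were listed for 9 of 10 genes in BE(2)-C without ATRA, for 8 of 10 with ATRA and for 3 of 10 in HEK293T, whereas 1 of 4 embryonic kidney genes had a site in HEK293T and 0 of 4 in BE(2)-C. A listed site shows that a transcript was detected, and an absent one says nothing about expression.

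The sequences of the sites show where in the transcripts the methylation lay. At 13 of the 68 genes a 5'UTR site had the letters CCATT, with the third letter the methylated adenosine. They are shown because they made up 7.18% of the 5'UTR sites of these genes in HEK293T against 1.24% of all 5'UTR sites, 11.4% against 2.38% in BE(2)-C without ATRA and 13.3% against 1.9% with ATRA. The 10 that could be read from the RefSeq promoter table (GRCh38.p14, gene strand, 5' to 3', 25 bases with the methylated adenosine in capitals) were these.
SRSF1 (chr17:58007231-58007255, minus strand): gataaaggcgccAttttggaggggc
SRSF3 (chr6:36594355-36594379, plus strand): cggtggtccgccAtttcgtggacgc
SRSF5 (chr14:69767100-69767124, plus strand): gacgcgccctccAttttgtggagcg
SRSF6 (chr20:43457884-43457908, plus strand): cgcgcgcgcgccAttgtgtggctgg
HNRNPC (chr14:21269412-21269436, minus strand): gactcgggggccAttttgtgaagag
HNRNPD (chr4:82373972-82373996, minus strand): cttccgtcggccAttttaggtggtc
HNRNPH1 (chr5:179623658-179623682, minus strand): cgcccgctggccAtttcgtcttagc
SNRPD3 (chr22:24555987-24556011, plus strand): gttaggcccgccAttcgcttgactc
SNRPF (chr12:95858953-95858977, plus strand): tgtttggcggccAtttctcttgaaa
SF3B5 (chr6:144095607-144095631, minus strand): cgttgtgacgccAttcttctgcgac

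The other 3 genes with such a site were PRPF8, PRPF19 and SNRPD1. Of the 12 such genes with a start in the table, 5 had the site within 5 nt of a RefSeq start. In SRSF6 and SNRPD3 the methylated adenosine was the start base itself (distance 0), and in HNRNPH1 it lay 1 nt downstream of 1 of its listed starts. The share of promoters with CCATT on the gene strand within 30 nt of the start was 12 of 83 listed starts (14.5%) for these genes and 1593 of 35116 (4.54%) for all genes. On the opposite strand (AATGG) it was 3 of 83 (3.61%) and 1360 of 35116 (3.87%). These shares were read after the motif had been noticed, and a match is a description, not a bound site.

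Another set of windows is shown for the start-proximal sites that carry the knockdown results below, the first 6 with lower RML after siPcif1 in at least 1 context and the last 2, SF3B4 and HNRNPM, at a similar RML in both HEK293T groups.
SRSF9 (chr12:120469704-120469728, minus strand): ttcccacaatgcAgtgcggctgagc
U2AF1 (chr21:43107547-43107571, minus strand): tgacgtctcccgAgggcgtcggcag
SNRPA1 (chr15:101295234-101295258, minus strand): ggggcgcggggcAcgctgggacgtc
HNRNPH3 (chr10:68332052-68332076, plus strand): tccccccaagccAgtagctgtgctg
HNRNPAB (chr5:178204521-178204545, plus strand): gtcggcattgtcAggcggcggcacc
SNRPB (chr20:2470775-2470799, minus strand): acgtggtgctgcAtttccggtagcg
SF3B4 (chr1:149927791-149927815, minus strand): cgtgctgaggtcAgaaggcggaacc
HNRNPM (chr19:8444974-8444998, plus strand): cacacaaagcccAgacgcggagaaa

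In each of these windows except that of U2AF1 a C stands just before the methylated adenosine, as it did at 58.8% of the 170 HEK293T 5'UTR sites of these genes without a DRACH motif (64% of all such sites). Of the 163 HEK293T 5'UTR sites whose gene had a listed RefSeq start, 121 (74.2%) lay within 50 nt of one and 36 (22.1%) within 5 nt.

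The first question was what PCIF1 depletion did to the 5'UTR sites of these genes compared with their coding and 3'UTR sites (internal sites below). In HEK293T the median 5'UTR site was lower after siPcif1 in all 6 subgroups, while the median internal site was near 0 change. The 5'UTR excess, the median log2 level of 5'UTR sites minus that of internal sites in the same library, was 1.85, 1.77 and 1.82 in the siScram libraries and 0.74, 0.92 and 1.22 in the siPcif1 libraries. The 3 siPcif1 libraries thus all lay below the 3 siScram libraries. The means were 1.81 ± 0.036 (SD, n = 3) and 0.957 ± 0.24, a difference of -0.85 on the log2 scale, where all sites of the table gave -0.73. No test was made on this score, because the genes were chosen with results of these data known.

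**Figure D1:**
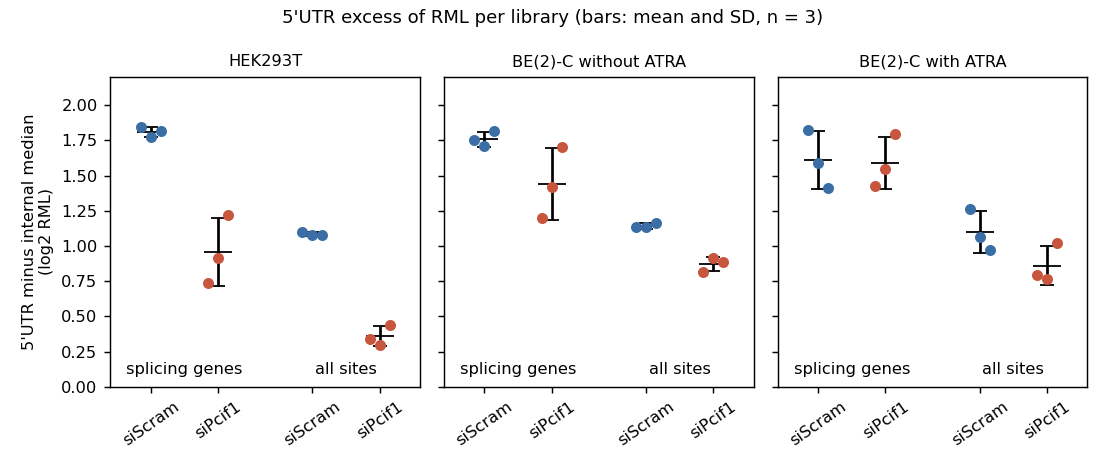
5'UTR excess (median log2 level of 5'UTR sites minus that of coding and 3'UTR sites) in each library, for the splicing genes and for all sites of each table; points are libraries, horizontal marks are means and bars are SD of 3 libraries. In HEK293T the splicing genes' siPcif1 libraries lie between 0.74 and 1.22, below the siScram libraries at 1.77 to 1.85, and with ATRA the 2 groups overlap.

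Changes are siPcif1 minus siScram of log2(RML + 0.298), where the added value is the 5th percentile of the table, so the change of low sites is understated. Over 181 5'UTR sites in 57 genes the median change was -0.66, and 158 were negative. Over all 12374 5'UTR sites of the table it was -0.65. The authors called 52 of the 181 in siScram alone and 2 in siPcif1 alone, and a listing through siScram alone favours a fall. Over those called in siPcif1 the median change was -0.62 (-0.57 over all such 5'UTR sites of the table). By subgroup the 5'UTR median was -0.69 for 53 hnRNP sites, -0.75 for 15 SR sites, -0.98 for 17 SF3 sites, -0.64 for 50 SNRP sites, -0.43 for 27 U2AF sites and -0.70 for 19 PRPF sites. All 15 SR sites and 47 of 50 SNRP sites were negative. The U2AF value rests mostly on U2AF2, with 19 of the 27 sites. Many of these lay upstream of the U2AF2 RefSeq start. Those at positions 55654132 to 55654722 of chromosome 19 ranged from -0.54 to 0.76, and the site at the start was at -0.83.

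At internal positions the HEK293T medians were -0.01 for 114 hnRNP sites, 0.03 for 31 SR sites, 0.06 for 41 SF3 sites, -0.01 for 5 SNRP sites, 0.04 for 9 U2AF sites and 0.07 for 34 PRPF sites. Over all 234 internal sites in 44 genes it was 0.02, with 110 negative (0.01 over the 39747 internal sites of the table). Their RML was also lower than at the 5' end, with a median siScram RML of 0.901 against 4.15, and a DRACH motif was present at 41.5% of them (60.3% of all internal sites). The 11 5'UTR sites of these genes with a DRACH motif had a median change of -0.12, against -0.67 for the 170 without. Where a gene had both kinds of site, its 5'UTR median lay below its internal median in 30 of 36 genes (83.3%), and in 88.8% of all 3476 such genes.

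**Figure D2:**
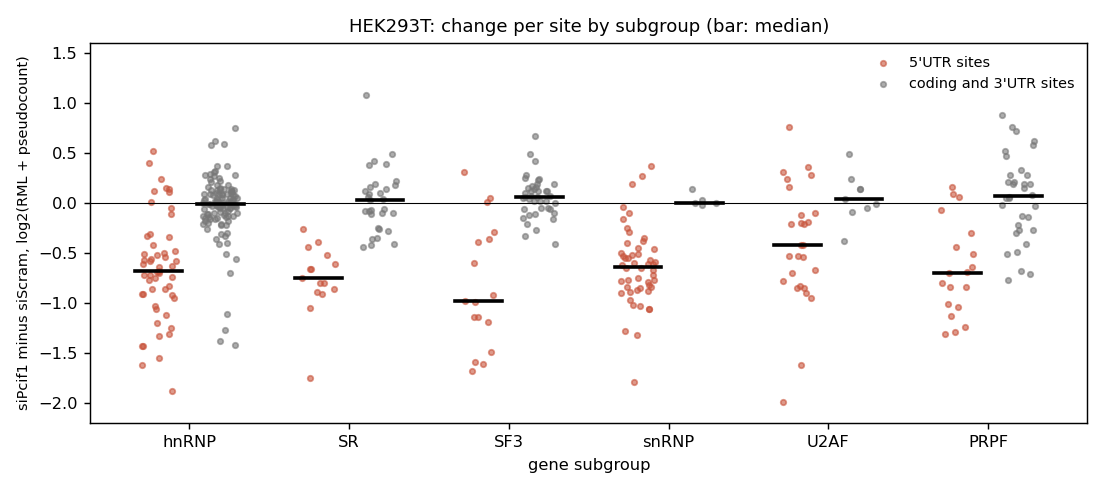
Change in HEK293T (siPcif1 minus siScram, log2(RML + 0.298)) for each listed site by gene subgroup; red points are 5'UTR sites, grey points coding and 3'UTR sites, and bars are medians. The 5'UTR medians lie between -0.98 and -0.43 and the internal medians between -0.01 and 0.07.

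Site by site, limma called 0 of the 418 HEK293T sites at an adjusted p of 0.05 in either direction, as it did for 0% of all sites of the table. Adjusting the authors' deposited p-values, doubled, gave 0 of them as well. At an unadjusted p of 0.05 it gave 68 lower (background 9.31% of all sites) and 9 higher (background 2.79%). For 5'UTR sites this was 62 lower of 181 against a background of 30.3%, and 0 higher against 0.42%. The 3 siPcif1 libraries lay below all 3 siScram libraries at 77 of the 181 5'UTR sites (42.5%), where the background over all 5'UTR sites was 32.9%, and above them at 1 (background 0.937%). They did so at 10 of 234 internal sites (4.27%, background 5.4%), and lay above at 20 (8.55%, background 6.14%).

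Because sites of a gene share its transcripts, the gene was also tested as a unit. Its start-site level is the mean log2 level of its 5'UTR sites without a DRACH motif, relative to the library's median over internal DRACH sites. Such a site was present in HEK293T for 56 splicing genes, of which 49 were lower after siPcif1 (median change -0.70, against -0.74 over all 5069 genes). limma called 2 of the 56 lower at an adjusted p of 0.05 and 0 higher, against 4.28% of all genes lower, so the share of calls, 2 genes, was not above the background. These were SRSF9 and U2AF1. The libraries of the 2 groups were fully apart, with siPcif1 lower, for 32 of the 56 genes (background 41.1%).

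SRSF9, an SR protein that acts on exon choice, had 1 site without DRACH in its 5'UTR, 32 nt downstream of the RefSeq start. Its RML was 4.73, 4.66 and 7.54 in siScram and 1.21, 1.43 and 1.66 in siPcif1 in HEK293T. Every siPcif1 library was below every siScram library, and the start-site level fell by 1.76 ± 0.34 (SE; limma adjusted p = 0.0404). In BE(2)-C without ATRA the same position had 4.19, 6.67 and 3.28 against 3.97, 0.753 and 2.49, and the groups overlapped.

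U2AF1, the small U2AF subunit that contacts the AG of the 3' splice site, had 4 such sites. At the site 11 nt downstream of the start the RML was 4.36, 3.23 and 7.01 in siScram and 0.63, 0.897 and 1.43 in siPcif1. These groups did not overlap. This site and 1 other of the 4 were listed through siScram alone, which favours a fall, whereas the other two were also called in siPcif1 and had changes of -0.90 and -0.67. The gene's start-site level fell by 1.30 ± 0.30 (SE; limma adjusted p = 0.046). U2AF1 has a near-identical copy, U2AF1L5, whose own start-site change was -0.71 ± 0.29 (limma adjusted p = 0.12), so how reads were split between them is uncertain. Both calls, SRSF9 and U2AF1, were lost when any 1 of the 6 libraries was left out (0 genes called in each case).

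Other hnRNP genes had large values in HEK293T that did not pass the test. HNRNPH3, a member of the hnRNP H family that binds G-rich RNA, has its methylated adenosine exactly at a RefSeq start. Its RML there was 29, 18.2 and 48.7 in siScram and 6.61, 9.33 and 13.3 in siPcif1 (change -1.62 ± 0.5, SE, limma adjusted p = 0.25). HNRNPAB, whose product binds both RNA and single-stranded DNA, had the highest mean siScram RML among hnRNP sites. It was 75.4, 36.7 and 33.7 in siScram and 16.3, 18.7 and 22.2 in siPcif1 (change -1.25 ± 0.46, limma adjusted p = 0.324). At both sites the groups were apart.

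HNRNPM, which acts on the splicing of alternative exons, differed from these. At its site 11 nt downstream of the start, the RML was 16.4, 17.4 and 18 in siScram and 18.4, 15.5 and 23.9 in siPcif1, and the groups overlapped. Its start-site change was 0.11 ± 0.37 (limma adjusted p = 0.834). The start-site changes of HNRNPA0, HNRNPL and HNRNPUL2 were likewise 0.10, 0.14 and 0.11, but the only HNRNPA0 site lay 231 nt from its nearest RefSeq start. The hnRNP 5'UTR site with the smallest p lay in HNRNPU, the nuclear scaffold protein, at 1.55, 1.64 and 1.16 in siScram and 0.289, 0.38 and 0.514 in siPcif1 (limma adjusted p = 0.157).

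Among the SR genes all 8 with a start-site level in HEK293T had a negative change. After SRSF9, the largest was that of SRSF7 (-1.06), with an RML of 24.4, 13.6 and 37.7 in siScram and 8.08, 12.2 and 13.7 in siPcif1 at the site 2 nt from its start, where the groups overlapped slightly. SRSF6 had the highest mean siScram RML of the SR sites, at 77.8, 14.3 and 19.1, but its siPcif1 libraries were at 5.04, 16.1 and 38.7. The groups overlapped there, and 1 siScram library held the high value. SRSF1, the classical splicing factor of this family, had 3.81, 3.54 and 4.38 in siScram and 2.45, 1.79 and 2.14 in siPcif1 at a site 27 nt upstream of its start, with no overlap (limma adjusted p = 0.4).

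The SF3 genes included both large and absent changes. SF3B1, the branch-point protein, had a start-site change of -1.50 ± 0.42 over 3 sites (limma adjusted p = 0.0604). At its RefSeq start the RML was 12.7, 18.6 and 11.5 in siScram and 4.62, 4.9 and 9.21 in siPcif1, and the groups were apart. SF3B6, which lies at the branch-point adenosine, had a change of -1.0 ± 0.31 over 4 sites and was also apart (limma adjusted p = 0.0731). SF3B4 differed from both. At its RefSeq start it had 22.1, 20.2 and 25.9 in siScram and 21.1, 17.5 and 31.8 in siPcif1, a start-site change of 0.00 ± 0.37 with full overlap.

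All 10 SNRP genes had negative start-site changes in HEK293T, from -0.36 for SNRPC to -0.90 for SNRPF. SNRPB, an Sm ring protein, had the highest RML of the group, 2 nt from its start. The values were 19.8, 19.3 and 30.8 in siScram and 8.46, 8.49 and 10.8 in siPcif1 (change -1.28 ± 0.42, limma adjusted p = 0.278). The siPcif1 libraries were all below the siScram libraries. SNRPD1, another Sm protein, had a change of -0.88 ± 0.25 over 6 sites (limma adjusted p = 0.0604).

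Of the PRPF genes, PRPF38A, a factor of spliceosome activation, had a start-site change of -1.06 ± 0.34 over 2 sites (limma adjusted p = 0.0789). At the PRPF38A site 38 nt upstream of its start the RML was 10.7, 6.07 and 10.5 in siScram and 4.41, 3.59 and 2.5 in siPcif1, with no overlap. That site was listed through siScram alone, which favours a fall. PRPF8, the large protein at the catalytic centre, had -0.78 ± 0.31 over 5 sites. Of these, 1 at position 114895 (change -1.24) matched no listed RefSeq start of the gene, and the others lay at positions 1684823 to 1684867. PRPF39 and the kinase PRPF4B had 0.15 and 0.08, but neither had a listed RefSeq start, so the distance of their sites from it is unknown. U2AF2, the large U2AF subunit that binds the polypyrimidine tract, had 16 start-site positions and a change of -0.31 ± 0.26, but at its RefSeq start the RML was 6.25, 6.46 and 6.44 in siScram and 2.86, 3.74 and 3.83 in siPcif1.

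The values differed with distance from the start. Measured from the outermost RefSeq gene bound, the median change in HEK293T was -0.70 for the 73 sites at or upstream of the start, -0.66 for the 68 at 1 to 50 nt and -0.69 for the 11 at 51 to 100 nt. It was -0.10 for the 62 sites farther than that but within 500 nt and 0.01 for the 200 beyond 500 nt. Over all sites of the table the same bins had -0.75, -0.72, -0.45, -0.16 and 0.00.

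A few coding sites in HEK293T had changes as large as those of 5'UTR sites. In HNRNPL, a CA-repeat binding protein, the coding site at position 38849938 of chromosome 19 had 5.78, 6.68 and 5.09 in siScram and 2.4, 1.66 and 2.17 in siPcif1 (change -1.38 ± 0.37, limma adjusted p = 0.206). This site lies 48 nt downstream of another listed RefSeq start of HNRNPL. A second HNRNPL coding site, 20 nt from that start, had a mean RML of 2.93 in siScram and 1.29 in siPcif1. In all, 6 internal sites in 3 genes lay within 100 nt of a listed start (HNRNPL, HNRNPM and SF3B2), and the sites of the other 2 genes had changes between -0.04 and 0.49.

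HNRNPDL, an hnRNP D relative, had its 2 coding sites at -1.27 and -1.42. The first, at position 82429408 of chromosome 4, had 1.68, 1.73 and 1.73 in siScram and 0.318, 0.626 and 0.711 in siPcif1 (limma adjusted p = 0.158). In the other direction, the SRSF5 3'UTR site at position 69771500 of chromosome 14 had 0.161, 0.427 and 0.482 in siScram and 1.07, 1.18 and 0.902 in siPcif1 (change 1.07 ± 0.23, limma adjusted p = 0.17). The groups were apart at both sites, but the SRSF5 site was listed through siPcif1 alone, which favours a rise. Some DRACH coding sites of high RML had changes near 0. That of HNRNPF was at 5.24 ± 0.35 (SD, n = 3) in siScram and 5.41 ± 0.37 in siPcif1. The HNRNPH2 site at position 101412168 of chromosome X was at 5.70 ± 1.8 and 5.62 ± 1.6. The HNRNPA0 site at position 137753973 of chromosome 5, with a higher RML, was at 6.99 ± 1.2 and 5.56 ± 0.33 (change -0.30).

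In BE(2)-C without ATRA most sites of these genes had lower RML after siPcif1 on the deposited scale, whether in 5'UTRs or internal. Over 70 5'UTR sites in 34 genes the median change of log2(RML + 0.502) was -0.59 with 69 negative (all 5'UTR sites -0.64). Over 386 internal sites in 41 genes it was -0.30 with 377 negative (all internal sites -0.41). The library medians over all sites moved the same way, from 1.82, 2.76 and 3.29 in siScram to 1.51, 1.87 and 1.71 in siPcif1. After subtraction of every library's own median, the 5'UTR median became -0.11 and the internal median 0.18. At an unadjusted p of 0.05, limma gave 68 of the 461 sites lower and 0 higher as deposited (all 22855 sites: 5985 and 18). After centring it gave 7 lower and 72 higher (all 22855 sites: 1126 and 2921). The direction at internal sites thus depends on the scaling of the libraries. Within libraries the 5'UTR excess of the splicing genes was 1.75, 1.71 and 1.81 in siScram and 1.2, 1.42 and 1.71 in siPcif1. The highest siPcif1 library lay just below the lowest siScram library, and the difference of the means was -0.32 (all sites -0.27).

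By subgroup, the 5'UTR medians in this table were -0.45 for 23 hnRNP sites, -0.87 for 8 SR sites, -0.42 for 6 SF3 sites, -0.77 for 18 SNRP sites and -0.58 for 13 sites of U2AF2. Most of these U2AF2 sites lay upstream of its RefSeq start, at positions 55654465 to 55654653 of chromosome 19. The U2AF2 site at the start was at -0.56. The 2 PRPF sites were at -0.73 and -0.03. Internal medians were -0.30, -0.31, -0.35, -0.21, -0.10 and -0.44 for the 308 hnRNP, 15 SR, 39 SF3, 14 SNRP, 4 U2AF and 6 PRPF sites. The siPcif1 libraries were below all siScram libraries at 33 of 70 5'UTR sites (47.1%, background 37%) and at 75 of 386 internal sites (19.4%, background 25.8%).

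limma called 4 of these sites at an adjusted p of 0.05, all lower, and 0 higher. The background was 3.69% of all sites lower and 0.0219% higher, so 4 of 461 was below it. The variance of this fit was almost wholly shared between sites, and with each library centred on its median, or without the variance trend, 0 of the 461 were called. Without siScram replicate 1 the count was 221 (12188 of all 22855 sites). It was 1 without siScram replicate 2 (78 of all sites) and 0 without any 1 of the other 4 libraries (40 to 160).

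The called sites belonged to SNRPA1, U2AF2, HNRNPR and HNRNPA0. Those of SNRPA1, U2AF2 and HNRNPA0 were listed through siScram alone (the authors' deposited siPcif1 p was 0.174, 0.297 and 0.075), and such a listing favours a fall. SNRPA1, the U2 A' protein, had a 5'UTR site 2 nt from its start with 10.3, 8.45 and 28.1 in siScram and 3.18, 2.84 and 3.87 in siPcif1. It fell by 1.90 ± 0.45 (SE; limma adjusted p = 0.0055), with no overlap. The U2AF2 site lay 560 nt upstream of the RefSeq start, at position 55654475 of chromosome 19, with 2, 3.1 and 9.16 against 1.45, 1.81 and 1.56. It fell by 1.08 ± 0.34 (limma adjusted p = 0.0458).

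HNRNPR, an hnRNP with several RNA-recognition motifs, was called at a coding DRACH site at position 23310530 of chromosome 1. Its RML was 1.22, 2.1 and 3.47 in siScram and 0.636, 1.27 and 0.787 in siPcif1. The groups overlapped by 1 library, and the site fell by 0.93 ± 0.27 (limma adjusted p = 0.0272). HNRNPA0, which binds AU-rich RNA, was called at a coding site with 0.602, 0.963 and 1.22 against 0.335, 0.448 and 0.552. It fell by 0.58 ± 0.16 (limma adjusted p = 0.0259).

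Relative to internal DRACH sites, limma called 0 of 34 splicing genes at their start sites without ATRA, as it did for 0% of all 1240 genes. At an unadjusted p of 0.05 it gave 3 lower (SNRPA1, SRSF6 and HNRNPA3, background 11%) and 0 higher (background 1.94%). The median change was -0.13 (all genes -0.18). SRSF6 had an RML of 21.8, 27.8 and 29.1 in siScram and 6.56, 12.7 and 6.35 in siPcif1, a start-site change of -1.11 ± 0.37 (limma adjusted p = 0.297), and the groups were apart. Its site was listed through siScram alone, which favours a fall. HNRNPA3, close to the A/B core hnRNPs, had 14.3, 14.9 and 17.4 against 4.35, 6.08 and 6.91 at a site 34 nt upstream of its start. At the HNRNPM and PRPF31 start sites the changes were 0.48 in both, with overlapping groups.

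With ATRA the median changes of both kinds of site were small on the deposited scale. Over 45 5'UTR sites in 26 genes the median change of log2(RML + 0.857) was 0.04 with 18 negative (all 5'UTR sites -0.06). Over 156 internal sites in 29 genes it was 0.14 with 30 negative, as over all internal sites (0.14). Each siScram library correlated better with a siPcif1 library than with its own group here (log2 values, all sites). Replicate 1 of siScram correlated with siPcif1 replicate 3 at 0.908 and with the other siScram libraries at 0.816 and 0.833. Replicates 2 and 3 of siScram correlated with siPcif1 replicate 2 at 0.850 and 0.851 and with each other at 0.835. Without siScram replicate 1 the 5'UTR median was -0.056 and the internal median -0.064, so the sign of both rests on that library. limma again called 0 of these sites. The 5'UTR excess was 1.82, 1.59 and 1.41 in siScram and 1.43, 1.55 and 1.79 in siPcif1. The groups overlapped fully, and the means differed by -0.02, while all sites of the table gave -0.24. Relative to internal DRACH sites, the start-site median over 26 genes was -0.14 with 19 negative (-0.27 over all genes). All 8 hnRNP genes (median -0.33) and all 4 SR genes (median -0.40) were negative, against 2 of 4 SF3 genes and 4 of 8 SNRP genes. Of genes with both kinds of site, 8 of 12 had the lower median in the 5'UTR (median difference -0.28), as did 73.7% of all such genes.

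Subgroup medians lay on both sides of 0 with ATRA. The 5'UTR medians were -0.14 for 14 hnRNP sites, -0.26 for 4 SR sites, -0.05 for 5 SF3 sites, 0.19 for 14 SNRP sites and 0.22 for 7 sites of U2AF2, with the single PRPF site at 0.26. Of these 7 U2AF2 sites 1 was negative, that at its RefSeq start (position 55655035 of chromosome 19, change -0.56). Its RML was 7.4, 7.27 and 5.82 in siScram and 4.73, 5.07 and 3.35 in siPcif1, and the groups were apart. The other U2AF2 sites lay upstream of the start, at positions 55654411 to 55654650, so the U2AF2 median does not describe its start. limma called 0 of the 203 sites (0% of all sites of the table) and 0 of 26 genes at their start sites (0% of all 1234 genes). At an unadjusted p of 0.05 it gave 1 site lower (background 0.842%) and 2 higher (background 2.03%), and the doubled deposited p-values called 0. Groups were apart with siPcif1 lower at 4 of 45 5'UTR sites (8.89%, background 9.03%). The gene test at that level gave 3 lower (background 16.6%) and 0 higher (background 1.46%).

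Those 3 genes were SNRPF, HNRNPAB and SRSF5. SNRPF, an Sm ring protein, had 38.1, 12.7 and 8.09 in siScram and 6.79, 5.15 and 4.89 in siPcif1 at its CCATT site, a start-site change of -1.52 ± 0.47 (limma adjusted p = 0.178). The groups were apart, though 1 siScram library was far above the others and the site was listed through siScram alone, which favours a fall. HNRNPAB had 25.1, 18.7 and 34.4 against 16.2, 12.5 and 15.3 at its start base (change -0.89 ± 0.39, limma adjusted p = 0.261), also apart. Internal medians with ATRA were 0.13 for 105 hnRNP sites, 0.19 for 11 SR sites, 0.12 for 29 SF3 sites, 0.27 for 3 SNRP sites and 0.22 for 7 PRPF sites, and the 1 U2AF site was at -0.02.

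**Figure D3:**
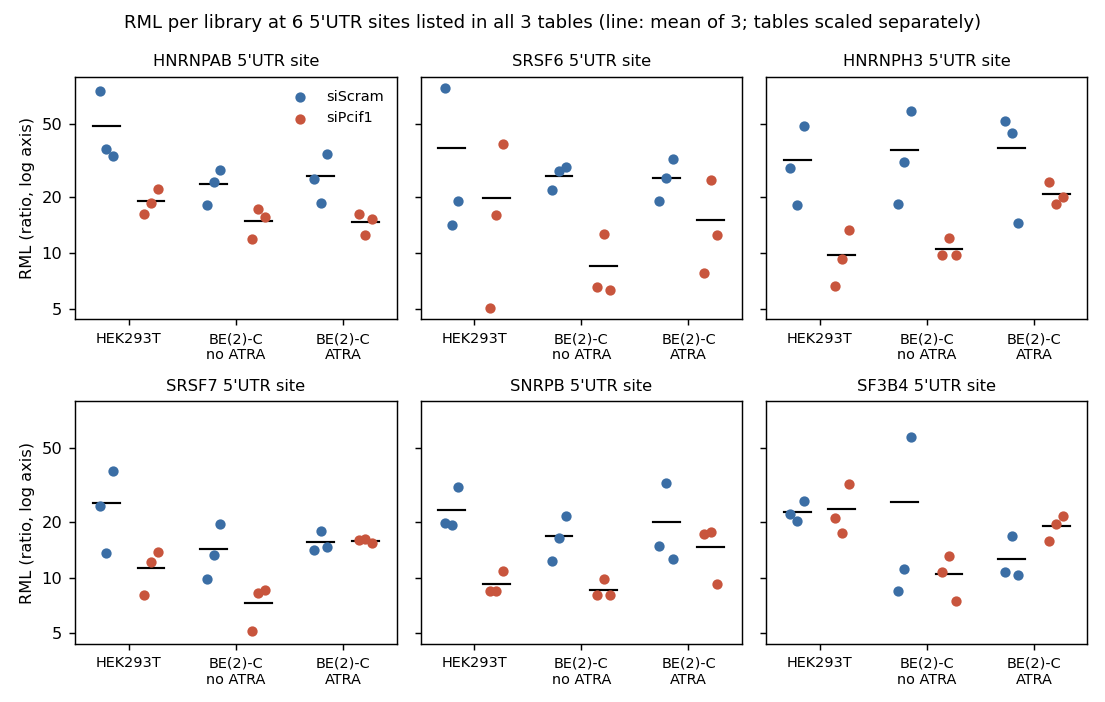
RML per library (log axis) at 6 5'UTR sites, those of the 6 genes with the highest mean siScram RML in HEK293T among sites listed in all 3 tables; blue points are siScram libraries, red points siPcif1 libraries, and lines are means of 3. HNRNPH3 and HNRNPAB have lower siPcif1 means in every context, whereas SRSF7 with ATRA has 15.5 and 15.8.

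The contexts are set side by side here, since each table was scaled separately. Start-site levels were measured in all 3 for 24 of the genes. The change was negative for 21 of them in HEK293T, for 16 in BE(2)-C without ATRA and for 17 with ATRA. Over all genes with a start-site level it was negative for 92.3%, 67.6% and 76.2%, in the same order. In every context 13 of the 24 were negative, a count for which no background was computed. HNRNPH3 had start-site changes of -1.24, -0.65 and -0.98, in the order HEK293T, without ATRA and with ATRA. SRSF6 had -0.90, -1.11 and -0.98, and SF3B1 had -1.50, -0.49 and -0.36. Conversely, SNRPE, an Sm protein, had -0.55, 0.10 and 0.40, and SF3B4 had 0.00, -0.26 and 0.44. No difference between contexts was tested gene by gene.

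**Figure D4:**
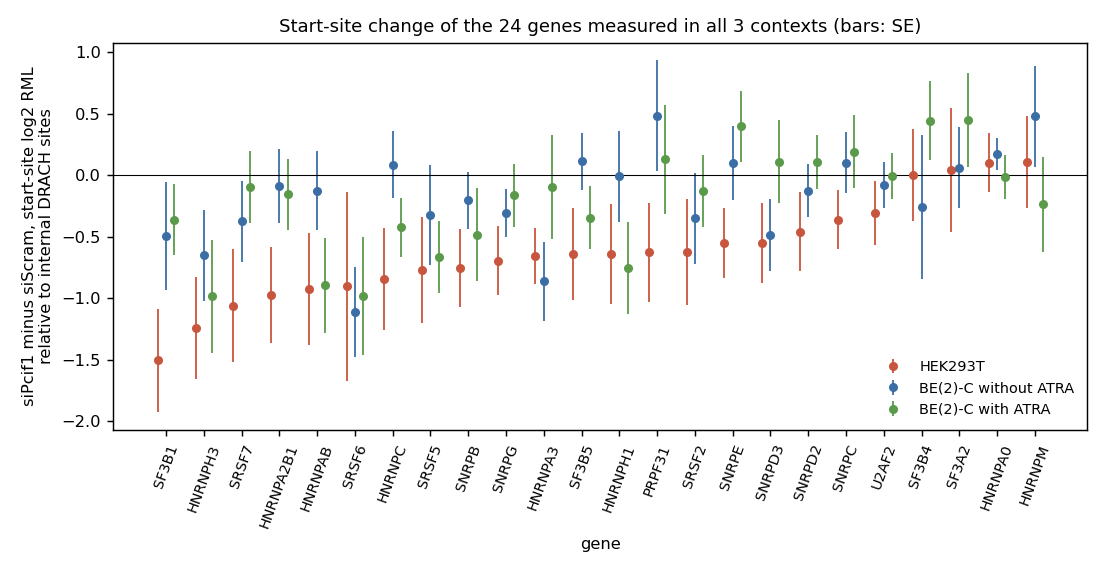
Start-site change (siPcif1 minus siScram, log2 RML relative to internal DRACH sites) of the 24 genes measured in all 3 contexts, ordered by their HEK293T value; points are limma estimates and bars SE. HEK293T values lie from -1.50 in SF3B1 to 0.11 in HNRNPM, and 13 of the 24 genes are negative in every context. The sites averaged for a gene can differ between contexts.

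HNRNPA2B1 and HNRNPC, core hnRNPs, had lower mean RML after siPcif1 in every context at the start base of the first and the CCATT site of the second. HNRNPA2B1 had 20.7 ± 2.5 and 12.8 ± 5.4 (SD, n = 3) at its start base in HEK293T, 12.4 ± 2.4 and 8.28 ± 2.2 without ATRA, and 19.1 ± 3.1 and 15.6 ± 3.2 with ATRA. HNRNPC had 10.3 ± 1.3 and 4.87 ± 0.67, 7.54 ± 1.1 and 4.28 ± 0.93, and 9.14 ± 1.8 and 7.23 ± 0.035 at its CCATT site. For HNRNPC the groups were apart in each context, and for HNRNPA2B1 they overlapped in each. The HNRNPA2B1 site 29 nt upstream of its start had 5.15 ± 1.7 and 6.93 ± 1.4 with ATRA, a change of 0.40. Relative to internal DRACH sites, the HNRNPC start-site change without ATRA was 0.08.

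All 13 CCATT sites in HEK293T had negative changes, from -0.07 in PRPF19 to -1.14 in SF3B5, with a median of -0.84 (-0.88 over all 5'UTR CCATT sites of the table). Without ATRA the 8 listed ones were negative as well, from -0.21 in SRSF3 to -1.63 in SRSF6. With ATRA the SNRPD3 site was at 0.24 and the other 5 were negative.

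The tables without and with ATRA shared 131 positions of these genes, 28.4% of the first and 64.5% of the second (34.1% and 37.1% over all sites). HEK293T and BE(2)-C without ATRA shared 129, which is 30.9% and 28% (12.5% and 31.1% over all sites). HEK293T and BE(2)-C with ATRA shared 95, which is 22.7% and 46.8% (12.3% and 33.4% over all sites). In all 3 tables there were 80 positions, 30 in 5'UTRs and 49 at internal positions. Besides these there were few intronic sites, 3 in HEK293T, 5 without ATRA and 2 with ATRA. The U2AF2 intron site at position 55669081 of chromosome 19 was in all 3, with mean RML of 5.23, 11.6 and 21.3 in siScram and 4.47, 7.03 and 15.8 in siPcif1.

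The number of listed sites per gene also differed between tables. HNRNPA2B1 had 58 sites without ATRA, 53 of them coding, against 6 with ATRA and 5 in HEK293T. HNRNPA1, its close relative and the most abundant hnRNP in many cells, had 56, 6 and 8 in the same order, and HNRNPC had 38, 9 and 8. HNRNPF had 39, 30 and 20 and HNRNPA0 36, 29 and 16, so for these the tables differed less. SF3B5, a small SF3B subunit, had 26, 23 and 24. Of the 58 HNRNPA2B1 sites 50 lay within 10 nt of another listed site of the gene and 1 had a DRACH motif, and their internal median siScram RML was 1.12. Over all splicing genes 265 of 461 sites lay within 10 nt of another without ATRA, 95 of 203 with ATRA and 144 of 418 in HEK293T.

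**Figure D5:**
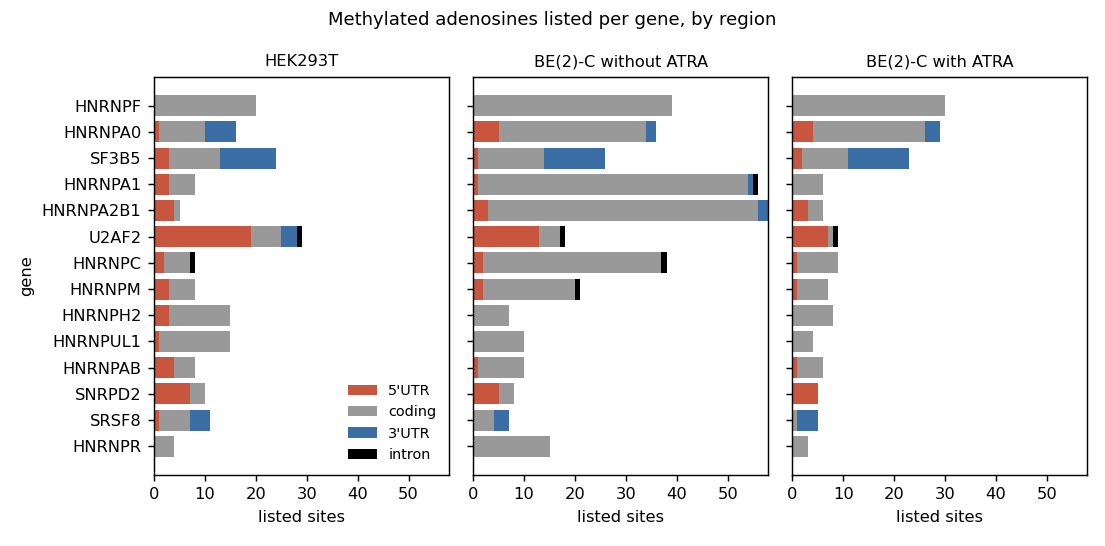
Number of listed methylated adenosines in the 14 splicing genes with the most sites over the 3 tables, by region and context. HNRNPA2B1 and HNRNPA1 have 58 and 56 sites without ATRA, nearly all coding, and 5 and 8 in HEK293T, where U2AF2 has the most with 29.

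HNRNPA1, HNRNPA2B1, HNRNPC and several Sm genes have processed pseudogenes, and HNRNPH1, HNRNPH2 and HNRNPF share sequence, so their counts of sites depend on how reads with several matches were placed, which no label or header states. In the HNRNPF coding region the DRACH site with the highest RML was listed in all 3 tables. Its mean RML was 5.24, 8.67 and 8.64 in siScram and 5.41, 4.52 and 8.05 in siPcif1, in the order HEK293T, without ATRA and with ATRA.

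The other genes of splicing were described by 3 lists. For 52 other spliceosome components the HEK293T median change was -0.80 over 79 5'UTR sites and 0.04 over 122 internal sites. For 28 SR kinases and SR-related proteins it was -1.08 over 36 5'UTR sites and 0.15 over 250 internal sites. For 43 other splicing regulators it was -0.65 over 47 and 0.00 over 99. At start sites limma called 1 of 39, 1 of 19 and 2 of 23 genes lower (background 4.28%).

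These genes were WBP11, SRPK1, PSPC1 and TAF15. Of the 217 genes called in the whole table, 0 were called without the variance trend or with 1 library left out, except for 2 genes without siPcif1 replicate 1. In WBP11, a spliceosome activation factor, the start-site level fell by 2.16 ± 0.49 (SE; limma adjusted p = 0.046). SRPK1, the kinase that phosphorylates SR proteins, fell by 1.30 ± 0.28 (limma adjusted p = 0.0441). PSPC1, a paraspeckle protein, fell by 1.92 ± 0.40 (limma adjusted p = 0.0428). TAF15, an RNA-binding protein of the FET family, fell by 2.03 ± 0.43 (limma adjusted p = 0.0438). It had 36.6, 82 and 50.9 in siScram and 5.04, 14 and 8.24 in siPcif1 at its 5'UTR site with the smallest p, with no overlap. Internally, the SON coding site at position 33550165 of chromosome 21 had 0.291, 0.292 and 0.341 in siScram and 1.8, 0.897 and 1.25 in siPcif1.

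The same lists had 5'UTR medians of -0.75, -1.0 and -0.49 in BE(2)-C without ATRA and of 0.11, -0.15 and -0.02 with ATRA. At internal sites the medians without ATRA were -0.46, -0.45 and -0.34, whereas with ATRA they were 0.21, 0.17 and 0.15. Without ATRA limma called 2 of 21, 2 of 16 and 2 of 14 5'UTR sites lower (background 8.57%). At internal sites it called 4 of 82, 7 of 140 and 2 of 187 lower (background 3.12%).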

How the data were processed

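Per the file headers, the authors deposited 1 table per context that holds RML as a ratio for each m6ACE library and the group means. It also holds p-values and a log2 ratio whose numerator is siScram, as deposited. The submitters' processing notes name hg38, STAR, Bowtie2, DESeq2, cutadapt 3.7 and bcl2fastq 2.20, with roles not given. Of the p-values the authors computed, in every row at least 1 of the 2 deposited DESeq2 p-values (1 per group) was at most 0.05. Input libraries have no column, and 0 per-sample columns were left unused. No multi-mapping rule, depth or strand setting is given in the sources used here.

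Each context was fitted alone with limma 3.58.1 in R 4.3.3 (lmFit and eBayes with a variance trend) on log2(RML + pseudocount), the pseudocount being the table's 5th percentile. P-values were adjusted by Benjamini-Hochberg over the whole table at 0.05. Changes are siPcif1 minus siScram, so the deposited log2 column has the reverse sign. The site is the base at the deposited end coordinate (1-based, hg38). All 68 symbols matched RefSeq. On simulated data limma recovered 35% of 100 HEK293T sites lowered by 2 on the log2 scale (57011 sites tested), and 63% of 100 genes lowered by 2 at start sites (5069 genes tested), with 1 false call each. For BE(2)-C without and with ATRA the site shares were 85% and 66%. For a fall of 1 limma recovered only 6% of the HEK293T sites and 12% of the HEK293T genes. The site shares for a fall of 1 were 16% and 3% without and with ATRA, so uncalled sites may still have changed.

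The members, lists and tests were chosen with earlier results of these data known. Named sites were, by subgroup, the 3 5'UTR and 2 internal sites of smallest p and that of highest RML in HEK293T, the 5'UTR and internal site of smallest p in each BE(2)-C table, all called sites, genes with a 5'UTR site in all 3 tables, and 2 genes per other list. CCATT sites, genes without a change and second HNRNPL and HNRNPDL sites were picked after their values were seen. Alternatives were another centring, pseudocounts, filter, no trend, a replicate block, the deposited p-values doubled and each library left out. A few named genes are not reported here. No libraries were identical. Same-numbered libraries did not deviate together in every pair, so the numbers were not taken as pairs.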

Additional observations from a re-analysis of the deposited data

Results flagged for a closer look

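PRPF4B, a kinase of the tri-snRNP, had opposite values at a coding DRACH site at position 4031809 of chromosome 6 in 2 contexts. In HEK293T the RML was 1.83, 1.63 and 0.877 in siScram and 2.45, 2.39 and 3.75 in siPcif1, a change of 0.88 with all siPcif1 libraries higher. In BE(2)-C without ATRA it was 5.7, 6.49 and 9.5 in siScram and 1.48, 4.63 and 3.11 in siPcif1, a change of -1.19 with all siPcif1 libraries lower. It was picked out because the libraries separate in opposite directions. In BE(2)-C without ATRA the site was listed through siScram alone, which favours a fall. The difference between the contexts was not tested, and neither change passed limma's test (adjusted p = 0.384 and 0.0617). Most sites of the BE(2)-C table without ATRA were lower after siPcif1 (median -0.30 over internal sites of splicing genes), which was not tested as a part of this difference.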

How the results depend on the processing

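Of 791 values of named sites and genes under other settings, 719 kept their direction and side of the threshold, 48 lost a call, 12 gained one and 12 reversed. Of the 63 named results only 4 sites and 2 genes were called in the main setting, so all 48 lost calls fell on these. An uncalled result kept its side by staying uncalled, so the 719 does not measure how stable the calls were. In HEK293T the 2 start-site genes became 1 with the pseudocount at the table's median, 0 without the variance trend and 0 to 0 when 1 library was left out. The 5'UTR median became -0.40 with that pseudocount and the internal median 0.14 after centring on library medians. In BE(2)-C without ATRA the 4 called sites became 0 after centring, 0 without the trend and 0 with the deposited p-values doubled. Their count became 0 to 221 when 1 library was left out (40 to 12188 of all 22855 sites). Without centring 1 start-site gene was called (67 of all 1240 genes). The 5'UTR median there became -0.11 after centring and -0.077 relative to internal DRACH sites, a setting added after the data had been seen, and the internal median 0.18 and 0.21. Centring takes out the shift shared by all sites of a library, which in that table is most of the change. Reversed after centring were SNRPD2 at position 45688424 (0.13) and U2AF2 at 55668778 (0.30), both coding. With 1 library left out, SF3B4 in HEK293T ranged from -0.23 to 0.19, SNRPD2 at 45688416 from -0.031 to 0.10 and U2AF1L4 from -0.053 to 0.95. With ATRA, U2AF2 at 55669086 ranged from -0.24 to 0.31 and PRPF31 from -0.31 to 0.69. The cause of these reversals was not tested. The labels give the groups the same replicate numbers. Deviations from the group mean were therefore correlated between same-numbered libraries over all sites. These correlations were 0.004 to 0.020 in HEK293T, 0.116, 0.005 and 0.009 without ATRA and -0.31, 0.06 and -0.26 with ATRA. With ATRA, the deviations of siScram replicate 1 correlated best with those of siPcif1 replicate 3 (0.46). With the replicate block the HEK293T start-site genes called were 0 and the sites called without ATRA 28 (2935 of all 22855 sites). Depth is unknown, so which low sites it limits cannot be said.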
